A study of Mus musculus with 3 samples.

Results

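The 7 genes described here, S100a1, S100a4, S100a6, S100a10, S100a11, S100a13 and S100a16, belong to the S100 family of small calcium-binding proteins. They were taken by name from a list of 7 symbols, all of which the deposited matrix holds, out of 3264 genes with a value in every cell. The matrix lists 13 S100 genes in all, and the 7 members held 25912 of the 15403190 unique molecular identifiers (UMIs, which count tagged transcripts) of the listed genes.

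S100 proteins are small EF-hand proteins that mostly work as dimers. When calcium binds, most of them open a surface that takes hold of a target protein, such as an annexin, a cytoskeletal motor or an ion pump. In heart and vessel tissue they are known for tuning contraction, membrane repair, cell movement and the release of growth factors and cytokines, and some are widely used to tell cell types apart.

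The samples are 3 mitral valve libraries of the mouse strain B6.129-Fbn1tm2Rmz/J, named mgR/mgR, which carry an allele that lowers fibrillin-1. The mice were 12 weeks old. Transcripts were captured in droplets and counted by UMIs, so no correction for transcript length was made. All libraries were pooled in 1 matrix without a sample name on any barcode, so genotype cannot be traced, no test or spread between mice was possible, and every interval below is a 95% interval that covers counting error only. The labels name only mgR mice. The paper describes valve experiments at this age on whole cells of wild-type and mgR mice. Its experiment on nuclei also included mgR mice given rapamycin, and no barcode is tied to any of these. Whether these barcodes came from whole cells or from nuclei is not settled, and cell means barcode here.

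The matrix had 16383 cells with a median of 5349 UMIs, from 503 to 23127. Its genes lie on chromosomes 1, 2 and 3, and they took up 15.7% of the UMIs of the median cell. The barcodes stand in 2 alphabetical runs, the first of 14222 cells with a median of 5154 UMIs and the second of 2161 cells with a median of 6918, and 11 barcodes occur in both. No label ties a run to a library, and values are given by run where they differ.

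Cells were grouped by a few marker genes, none of them a member. Fibroblasts, 3149 cells, had UMIs of at least 2 of Prrx1, Col3a1 and Dpt and none of Egfl7. Egfl7 cells, 8966 in number, had a UMI of Egfl7 and UMIs of fewer than 2 of those genes, and Ptprc cells, 470 in number, had a UMI of Ptprc and met neither rule. A further 421 cells met the fibroblast and Egfl7 rules together, and 3377 met none. The groups had medians of 6063, 5365.5 and 4851 UMIs a cell in the order fibroblasts, Egfl7 cells and Ptprc cells.

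The labels were checked on marker lists, of which the matrix holds only the genes on its chromosomes. Of 9 fibroblast genes 8 are listed, and their summed level was 36.8 UMIs per 10000 in fibroblasts against 9.54 in Egfl7 cells and 2.94 in Ptprc cells. Of 10 endothelial genes 5 are listed (Egfl7, Eng, Procr, Sox17 and Sox18), with sums of 20.04 in Egfl7 cells, 1.34 in fibroblasts and 1.01 in Ptprc cells. Of 8 leukocyte genes 7 are listed, with sums of 31.2 in Ptprc cells, 0.375 in Egfl7 cells and 0.325 in fibroblasts. The lists include the genes of the rule itself, so part of these differences was fixed by it.

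The members lie in 2 stretches of chromosome 3 (GENCODE M21, GRCm38). S100a1 (90511034 to 90514392, minus strand) and S100a13 (90514435 to 90524581, plus strand) stand head to head with 42 bases between them. S100a16 (90537254 to 90543151), S100a4 (90603771 to 90606045) and S100a6 (90612882 to 90624181) follow on the plus strand. A gap of 2824766 bases beyond S100a9 leads to S100a11 (93520488 to 93526287) and, 28792 bases on, S100a10 (93555080 to 93564643). S100a3, with 0 UMIs in all cells, ends 1068 bases before S100a4, and GENCODE marks both as overlapping loci. The gene Gm42674 (90601904 to 90605885, plus strand), not listed in the matrix, covers 2115 bases of S100a4. S100a11 has a processed pseudogene on another chromosome. How reads shared by S100a4 and Gm42674, or by S100a11 and its pseudogene, were counted is not given in the sources used.

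S100a1, best known in heart muscle, where it binds the calcium release channel and the calcium pump, shares its start region with S100a13, which helps export fibroblast growth factor and interleukin-1 alpha from cells. The RefSeq promoter windows (GRCm38.p6, 250 bases before to 50 after the start) matched 6 members, all but S100a10, in 7 windows since S100a16 has a pair of them. The S100a1 window (chr3:90514281-90514580, minus strand) and the S100a13 window (chr3:90514185-90514484, plus strand) have 204 bases in common. The S100a13 window is shown, because these neighbours had the largest ratios of the 7 between subsets of Egfl7 cells.
S100a13: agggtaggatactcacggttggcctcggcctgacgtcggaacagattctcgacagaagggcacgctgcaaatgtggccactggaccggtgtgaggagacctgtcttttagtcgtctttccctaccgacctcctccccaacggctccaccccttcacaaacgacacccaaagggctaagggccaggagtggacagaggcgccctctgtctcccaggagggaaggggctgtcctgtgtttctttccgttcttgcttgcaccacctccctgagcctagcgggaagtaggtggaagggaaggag
The window was 59.3% G and C with 14 CpG, against medians of 52.7% and 7 over all 32817 windows. The 4 motifs searched, on both strands, were TATAAA, the GC box GGGCGG, the CCAAT box and the AP-1 motif TGANTCA, and none was found in either of these windows.

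S100a4 binds non-muscle myosin and carries the older name fibroblast-specific protein, although leukocytes also express it. Its window (chr3:90603520-90603819, plus strand) is shown because its pattern over the groups differed from those of the other members, with the motif match in capitals.
S100a4: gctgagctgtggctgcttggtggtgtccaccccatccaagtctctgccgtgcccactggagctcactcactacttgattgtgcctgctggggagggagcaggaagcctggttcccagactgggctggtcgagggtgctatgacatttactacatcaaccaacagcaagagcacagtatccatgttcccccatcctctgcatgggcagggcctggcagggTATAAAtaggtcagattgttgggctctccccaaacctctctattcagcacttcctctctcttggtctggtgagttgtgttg
It holds TATAAA 31 bases before the start, a motif found in 13.6% of all windows. Matches are a description of letters and say nothing of use by a factor. In CpG this window with 2, those of S100a16 with 2 and 4 and that of S100a6 with 6 lay under the median of 7. Those of S100a1 with 11 and S100a11 with 15 lay above it.

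S100a11 binds annexins and takes part in membrane repair, and S100a10 forms a complex with annexin A2 at the cell surface and has lost calcium binding. The S100a11 window (chr3:93520246-93520545, plus strand) had the most matches of the 7 windows, shown in capitals.
S100a11: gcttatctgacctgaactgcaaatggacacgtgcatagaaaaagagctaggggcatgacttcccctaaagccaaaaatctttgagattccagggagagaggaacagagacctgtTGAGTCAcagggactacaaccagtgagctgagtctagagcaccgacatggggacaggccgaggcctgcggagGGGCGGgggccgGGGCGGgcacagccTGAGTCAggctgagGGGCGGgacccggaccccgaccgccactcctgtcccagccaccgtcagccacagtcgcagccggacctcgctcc
It holds GGGCGG 3 times, 64, 52 and 24 bases before the start, and TGANTCA at 136 and 38 bases before it. Of all windows 35.6% hold GGGCGG and 7.81% hold TGANTCA. S100a6, or calcyclin, which binds the ubiquitin ligase adaptor Cacybp, had 1 match to CCAAT, 228 bases before the start, a motif found in 37.4% of windows. S100a16 is a widely expressed member with weak calcium binding, and its second window (chr3:90540896-90541195) had 1 match each to GGGCGG and TGANTCA.

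Over all cells the members were of unequal weight. S100a6 made up 31.9% of the members' UMIs and S100a10 29.1%. S100a11 made up 14.1%, S100a16 11% and S100a13 8.13%. The least counted were S100a1 with 4.59% and S100a4 with 1.14%.

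The summed level of the 7 members was 1.21 UMIs per 10000 in fibroblasts (1.16 to 1.26, from 2524 UMIs). It was 3.21 in Egfl7 cells (3.16 to 3.26, from 17253 UMIs). In Ptprc cells it was 2.05 (1.88 to 2.24, from 499 UMIs). These intervals did not overlap, and 5 of the 7 members had the same order of pooled levels. The plot of levels by group gives each member in each run of barcodes.

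**Figure D1:**
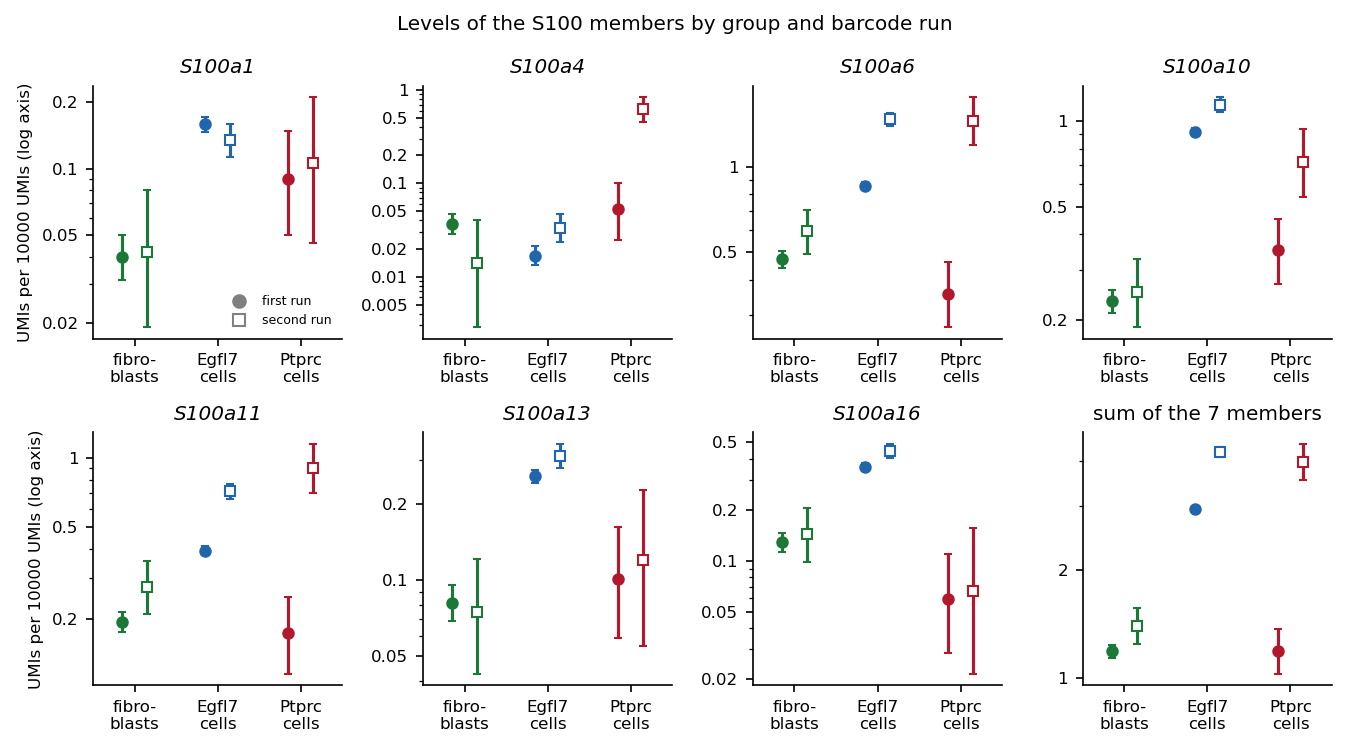
Level of each member and of their sum in UMIs per 10000 UMIs (log axis) in fibroblasts, Egfl7 cells and Ptprc cells, in the first run (circles) and the second (squares), with 95% Poisson intervals. S100a4 in Ptprc cells lay at 0.0536 and 0.626, and the sum in Egfl7 cells at 2.96 and 4.25.

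With the runs pooled, the S100a6 level was highest in Egfl7 cells, 0.974 (5238 UMIs), against 0.696 in Ptprc cells (169 UMIs) and 0.484 in fibroblasts (1012 UMIs). S100a10 reached 0.960 in Egfl7 cells (5162 UMIs), 0.465 in Ptprc cells (113 UMIs) and 0.235 in fibroblasts (491 UMIs). The pooled S100a6 and S100a10 levels in Egfl7 cells did not differ beyond counting error, but their order turned with the run. S100a6 was at 0.855 against 0.916 for S100a10 in the first run, a ratio of 0.934 (0.893 to 0.977), and at 1.47 against 1.14 in the second, a ratio of 1.29 (1.19 to 1.39). With cells of 10 or more ribosomal UMIs left out, a split described below, it was at 0.453 against 0.615, a ratio of 0.737 (0.697 to 0.779). In fibroblasts S100a6 stood above S100a10 in both runs. In shares of the members' UMIs, S100a6 made up 40.1% in fibroblasts and S100a10 19.5%.

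S100a11 was at 0.457 in Egfl7 cells (2458 UMIs), 0.399 in Ptprc cells (97 UMIs, 0.324 to 0.487) and 0.202 in fibroblasts (423 UMIs). Its pooled levels in Egfl7 and Ptprc cells did not differ beyond counting error, but the runs did not agree. In the first run it was at 0.173 in Ptprc cells and 0.395 in Egfl7 cells, a ratio of 0.437 (0.292 to 0.630). In the second the ratio was 1.27 (0.973 to 1.63), and 0.607 (0.412 to 0.865) without 1 cell described below. S100a1 was at 0.154 in Egfl7 cells (828 UMIs), 0.0947 in Ptprc cells (23 UMIs) and 0.0402 in fibroblasts (84 UMIs). S100a13 was at 0.269 in Egfl7 cells (1445 UMIs), 0.107 in Ptprc cells (26 UMIs, 0.0699 to 0.157) and 0.0808 in fibroblasts (169 UMIs, 0.0691 to 0.0940). For S100a13 the lower levels, in Ptprc cells and fibroblasts, had overlapping intervals.

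S100a16 and S100a4 followed other orders. S100a16 was at 0.374 in Egfl7 cells (2014 UMIs), 0.131 in fibroblasts (273 UMIs) and only 0.0618 in Ptprc cells (15 UMIs), the lowest of its levels in the 3 groups. S100a4 was at 0.231 in Ptprc cells (56 UMIs, 0.174 to 0.299), 0.0344 in fibroblasts (72 UMIs, 0.0269 to 0.0434) and 0.0201 in Egfl7 cells (108 UMIs, 0.0165 to 0.0242). The 3 intervals of S100a4 did not overlap. Ptprc cells thus gave 11.2% of their members' UMIs to S100a4 and 3.01% to S100a16.

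The run of barcodes mattered for Ptprc cells. Their summed level was 1.19 in the first run (348 cells) and 4.0 in the second (122 cells). Egfl7 cells had 2.96 in the first run (7599 cells) and 4.25 in the second (1367 cells). Fibroblasts had 1.19 in the first run (2875 cells) and 1.39 in the second (274 cells), so fibroblasts and Ptprc cells stood level in the first run. The level of Ptprc cells in the second run rested in good part on 1 cell, described below, and without it was 2.52. In the first run the Ptprc to fibroblast ratio was 0.758 (0.574 to 0.985) for S100a6 and 0.891 (0.588 to 1.30) for S100a11, against 1.44 and 1.97 with the runs pooled. Without that cell the pooled ratios were 1.09 (0.904 to 1.32) and 1.25 (0.938 to 1.64). In second-run Ptprc cells S100a6 reached 1.45 and S100a11 0.906, but without that cell they were at 0.922 and 0.434, below the 1.47 and 0.715 of Egfl7 cells.

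S100a4 changed its place with the run. In the first run it was at 0.0368 in fibroblasts (69 UMIs), 0.0168 in Egfl7 cells (73 UMIs) and 0.0536 in Ptprc cells (9 UMIs). In the second run it was at 0.0140 in fibroblasts (3 UMIs), 0.0336 in Egfl7 cells (35 UMIs) and 0.626 in Ptprc cells (47 UMIs). Ptprc cells were highest in both runs, though in the first their interval overlapped that of fibroblasts.

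Few cells carried the S100a4 UMIs of the Ptprc group, 25 of 470. One Ptprc cell of the second run, with 13489 UMIs in all and none of Mrc1, held 114 of the group's 499 members' UMIs, among them 18 of S100a4, 41 of S100a6 and 36 of S100a11. Without it the group's summed level was 1.59 (1.44 to 1.76). The S100a4 level was then 0.157, that of S100a6 0.530 and that of S100a11 0.253, so S100a4 stayed above the other groups, S100a6 came close to fibroblasts and S100a11 fell below Egfl7 cells.

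The first comparison asks how the members differ between the matrix-producing fibroblasts and the Egfl7 cells of the valve. The summed level in fibroblasts was 0.376 times that in Egfl7 cells (0.361 to 0.392). By member the ratio was 0.245 for S100a10, 0.261 for S100a1, 0.301 for S100a13, 0.349 for S100a16, 0.443 for S100a11 and 0.497 for S100a6 (0.464 to 0.532). S100a4 alone of the 7 was higher in fibroblasts, with a ratio of 1.72 (1.25 to 2.33).

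Of the 7 members 6 had a ratio of at most 0.5, against 15.1% of the 2594 genes with at least 50 UMIs in these groups together. In the first run S100a6 had 0.552, which left 5 members at or under 0.5. None had a pooled ratio of at least 2, against 18.2% of those genes. The median ratio was 0.349 over the members and 1.04 over all genes compared. Over genes with an annotated span of at most 15 kb, the median was 0.909, and 19.1% were at or under 0.5. The summed level of 10 listed ribosomal protein genes, also short and abundant, had a ratio of 0.334, at 1.81 in fibroblasts and 5.43 in Egfl7 cells.

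The fibroblast to Egfl7 ratio of the sum was 0.401 in the first run and 0.328 in the second. S100a4 did not keep its direction, since first-run cells gave 2.19 (1.55 to 3.08) and second-run cells 0.416 (0.0818 to 1.32), where fibroblasts had 3 UMIs of it and the interval includes 1. The plot of ratios between groups shows S100a4 apart from the other members when the runs are pooled.

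**Figure D2:**
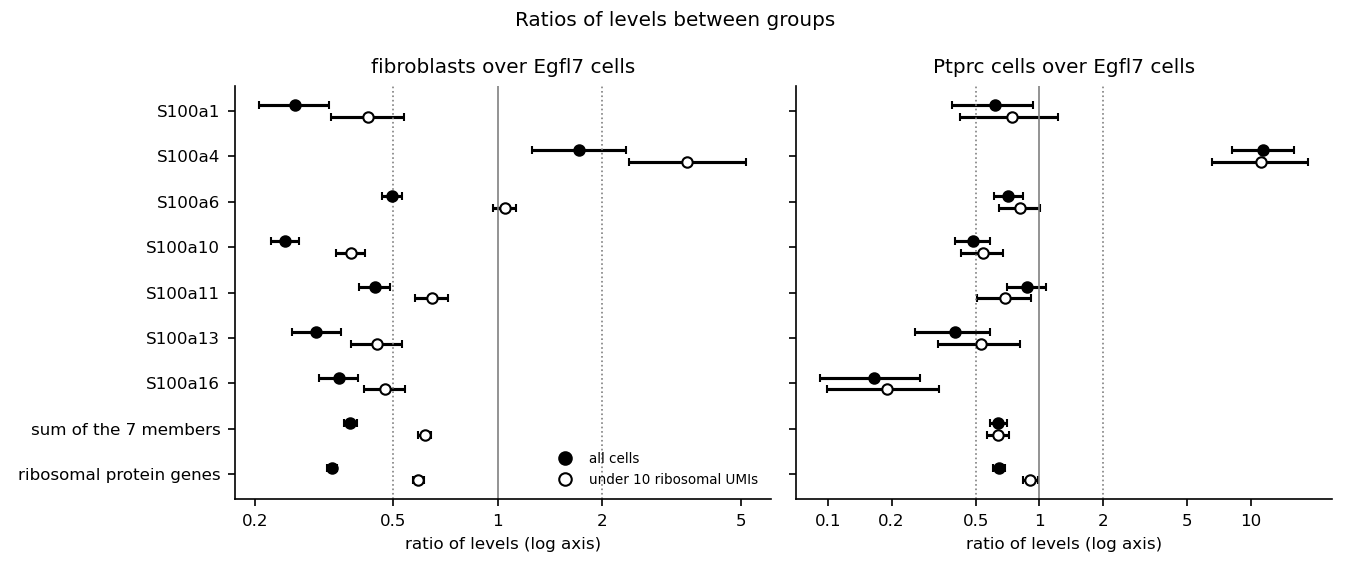
Ratio of levels (log axis) of each member, their sum and the ribosomal protein genes, fibroblasts over Egfl7 cells (left) and Ptprc cells over Egfl7 cells (right), with 95% counting intervals, in all cells (filled) and in cells under 10 ribosomal UMIs (open); dotted lines mark 0.5 and 2. In all cells the sums lie at 0.376 and 0.640, and S100a4 lies at 1.72 and 11.5.

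The next comparison asks how leukocytes of the valve differ from Egfl7 cells. The summed level in Ptprc cells was 0.640 times that in Egfl7 cells (0.585 to 0.700), and without the cell described above it was 0.497. By run it was 0.401 and then 0.940, the latter 0.593 (0.510 to 0.687) without that cell. The ribosomal protein genes were also lower, at 3.50 in Ptprc cells and 5.43 in Egfl7 cells. S100a4 had a ratio of 11.5 (8.16 to 16), which was 3.19 and 18.6 by run. Without that cell it was 7.83 in all and 11.7 in the second run. S100a16 had the lowest, 0.165, followed by S100a13 with 0.398 and S100a10 with 0.485. S100a1 had 0.615 (0.388 to 0.929), though in the second run, from 8 UMIs, 0.792 (0.335 to 1.60). S100a6 had 0.714, with 0.418 for first-run cells and 0.989 (0.806 to 1.20) for second-run cells, the latter 0.628 (0.485 to 0.801) without that cell. S100a11 had 0.874 (0.706 to 1.07), which was 0.553 (0.421 to 0.712) without that cell, and its ratios by run are given above.

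Of the 7 members 3 were at or under 0.5, against 20.6% of 2465 genes, and 1, S100a4, was at or above 2, against 18.3%. With cells of 10 or more ribosomal UMIs left out, S100a10 had 0.539 and S100a13 0.530, and S100a16 alone stayed at or under 0.5. In the first run S100a6 and S100a11 were also under 0.5, as given above. The median was 0.615 over the members and 0.974 over all genes compared. Between Ptprc cells and fibroblasts the sum had a ratio of 1.70, S100a4 6.69 and S100a16 0.473, and without that cell these were 1.32, 4.57 and 0.476. In the first run they were 1.0 (0.861 to 1.16), 1.46 (0.640 to 2.93) and 0.462, and in the second 2.87, 44.7 (14.4 to 225, from 3 UMIs in fibroblasts) and 0.461 (0.140 to 1.19). Without that cell the second-run ratios of the sum and S100a4 were 1.81 and 28.1. With the runs pooled S100a4 had the highest and S100a16 the lowest ratio of the 7 against both other groups. Against fibroblasts in the first run S100a1, with 2.24 (1.19 to 3.93), and S100a10, with 1.51 (1.13 to 1.98), stood above S100a4, within counting error.

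The S100 level of Egfl7 cells was carried unevenly. Cells were split by their ribosomal protein UMIs, a measure that uses no member, at 10 or more, and this split was chosen after values had been seen. Of the Egfl7 cells 623, or 6.95%, had 10 or more, with a median of 9400 UMIs in all against 5191 in the rest. They held 46.5% of the group's members' UMIs, at a summed level of 13.7 against 1.93. They made up 4.25% of Egfl7 cells in the first run and 21.9% in the second.

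Members differed in how much of their Egfl7 total came from these cells. S100a6 had 58.6% of its UMIs there, at a level of 5.22 against 0.453 in the rest, and S100a4 had 57.4%. S100a16 had the least, 35.8%. Among fibroblasts only 9 cells, 0.286%, had 10 or more ribosomal UMIs, and among Ptprc cells 11, 2.34%, which held 42.7% of that group's members' UMIs at a level of 20.4 against 1.23. The Ptprc cell of 114 members' UMIs is among these 11, and without it the other 10 held 25.7% at a level of 10.9.

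With those cells left out of each group, the fibroblast to Egfl7 ratio of the sum was 0.616 (0.589 to 0.644), and that of the ribosomal genes was 0.590. S100a6 then had a ratio of 1.05 (0.971 to 1.13), so its levels in fibroblasts and Egfl7 cells did not differ beyond counting error. S100a10 had 0.378, S100a1 0.425, S100a13 0.449, S100a16 0.473 and S100a11 0.646. S100a4 rose to 3.50 (2.38 to 5.19). At or under 0.5 were 4 of 7 members, against 13.4% of 2580 genes, with medians of 0.473 over members and 1.03 over all. The Ptprc to Egfl7 ratio was then 0.639 for the sum, 0.906 for the ribosomal genes, 11.2 for S100a4 and 0.687 for S100a11. That of S100a1 was 0.743 (0.421 to 1.22) and that of S100a6 0.807 (0.642 to 1.002), so neither differed from 1 beyond counting error. The cells left out include the Ptprc cell of 114 members' UMIs, without which alone the ratios of the sum, S100a4 and S100a11 were 0.497, 7.83 and 0.553. Between Ptprc cells and fibroblasts the ratio of the sum was then 1.04 (0.915 to 1.17), that of S100a4 3.20 and that of S100a11 1.06 (0.774 to 1.43), and S100a6 was lower in Ptprc cells, 0.770 (0.610 to 0.962). Depth and ribosomal content moved together with the S100 level in these cells, and their part in it was not tested.

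Cells were also clustered with the members left out of the genes used (Leiden, 11 clusters), and the plot of S100 and ribosomal levels shows 1 cluster far above the others on both axes. The fourth cluster, sorted as Egfl7 cells by its markers, held 641 cells, 3.91% of all, with a median of 8977 UMIs. Its summed S100 level was 16.2 (15.9 to 16.6) and its ribosomal level 26.9, and it held 36.2% of all members' UMIs. The other clusters of Egfl7 cells had S100 sums from 1.60 to 3.28, and 2.14 together. The fibroblast clusters had 1.25 and 1.29, and the Ptprc cluster 1.69. In the fourth cluster 45.1% of cells were in the second run, and 84.7% had 10 or more ribosomal UMIs.

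**Figure D3:**
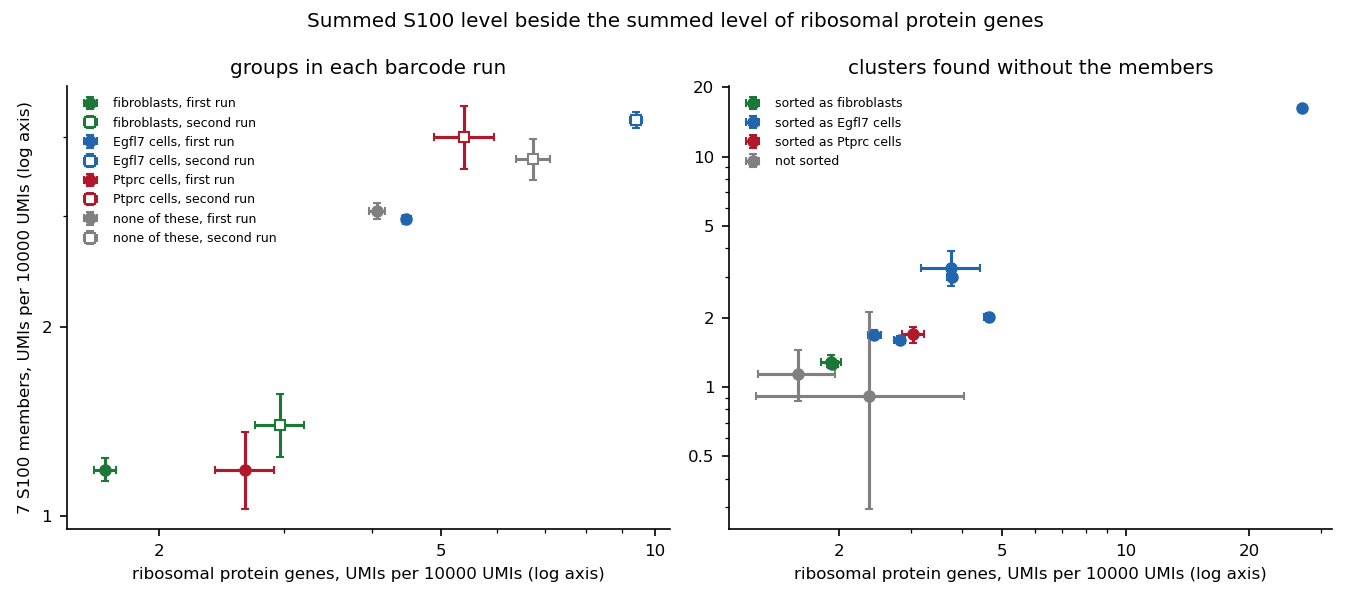
Summed level of the 7 members against that of the ribosomal protein genes, both in UMIs per 10000 UMIs (log axes) with 95% Poisson intervals, for groups in each run (left) and Leiden clusters (right). The fourth cluster lies at 16.2 for the members and 26.9 for the ribosomal genes, and the other clusters of Egfl7 cells lie between 1.60 and 3.28 for the members.

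The fourth cluster was singled out for its S100 level after the values were seen, so what follows is a description. S100a6 was at 6.18 there against 0.530 in the other Egfl7 clusters, a ratio of 11.7, which was the largest of 1660 genes with at least 500 UMIs. Romo1 came next with 11.6 and Map1lc3a with 11.2. The ribosomal protein genes other than Rpl35 and Rpl22l1 also ranked within the first 20, from 10.1 for Rps21 to 6.97 for Rpl37a. S100a1 had a ratio of 8.09 (rank 14), S100a10 6.76 (rank 23), S100a13 6.33 (rank 29), S100a11 5.75 (rank 33) and S100a16 4.63 (rank 45). All 6 members with enough UMIs were at or above 2, against 13.1% of the genes compared, with medians of 6.54 over members and 0.902 over all. High ratios of the members were largely fixed by choosing the cluster for its S100 level, so these numbers are no support for a trait of the family. S100a4 was under that minimum of UMIs, at 0.137 against 0.00951.

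Egfl7 cells were split further by 3 pairs of genes, each cell going to the pair with the most UMIs. Where in the valve the cells of each pair lie was not tested. The summed S100 level was 2.46 in 3309 cells with Prox1/Kif26b, 3.23 in 2633 with Selp/Fmo2 and 3.99 in 1093 with Tmem163/Kcnh1. The 353 cells tied between pairs had 4.62 and the 1578 cells with none of these genes 3.92. Among the 3 pairs the Tmem163/Kcnh1 cells were highest, at 1.62 times the Prox1/Kif26b cells (1.55 to 1.69), while the ratio of the ribosomal genes was 1.08. By run the ribosomal levels in the same order were 5.02 against 3.53 in the first and 6.79 against 8.45 in the second. With cells of 10 or more ribosomal UMIs left out the ribosomal ratio was 0.867 (0.820 to 0.917).

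S100a1 had the largest Tmem163/Kcnh1 to Prox1/Kif26b ratio of the members in all cells, 2.31, followed by its head-to-head neighbour S100a13 with 1.98. S100a10 had 1.83, S100a6 1.76 and S100a16 1.24. S100a4 had 1.38 (0.719 to 2.54) and S100a11 0.971 (0.849 to 1.11), and neither differed beyond counting error. A single Prox1/Kif26b cell held 11 of the 33 S100a4 UMIs of its subset, and without it the ratio of S100a4 was 2.06 (1.03 to 4.07) and that of S100a13 2.02. Without the Tmem163/Kcnh1 cell of the most members' UMIs, 178, the ratio of S100a4 was 1.14 (0.561 to 2.18), that of S100a6 1.58 and that of the sum 1.52. In all cells, at or above 2 was 1 of 7 members, against 5.60% of 2142 genes, with medians of 1.76 over members and 0.969 over all. In the plot of levels in the subsets, S100a11 and S100a16 had their highest values in Selp/Fmo2 cells in each run, with intervals that overlapped those of Tmem163/Kcnh1 cells. With the runs pooled, S100a11 was lower in Tmem163/Kcnh1 than in Selp/Fmo2 cells, 0.402 against 0.524, a ratio of 0.768 (0.671 to 0.876), while S100a16 had 0.903 (0.783 to 1.04) and the sum 1.23 (1.18 to 1.29).

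**Figure D4:**
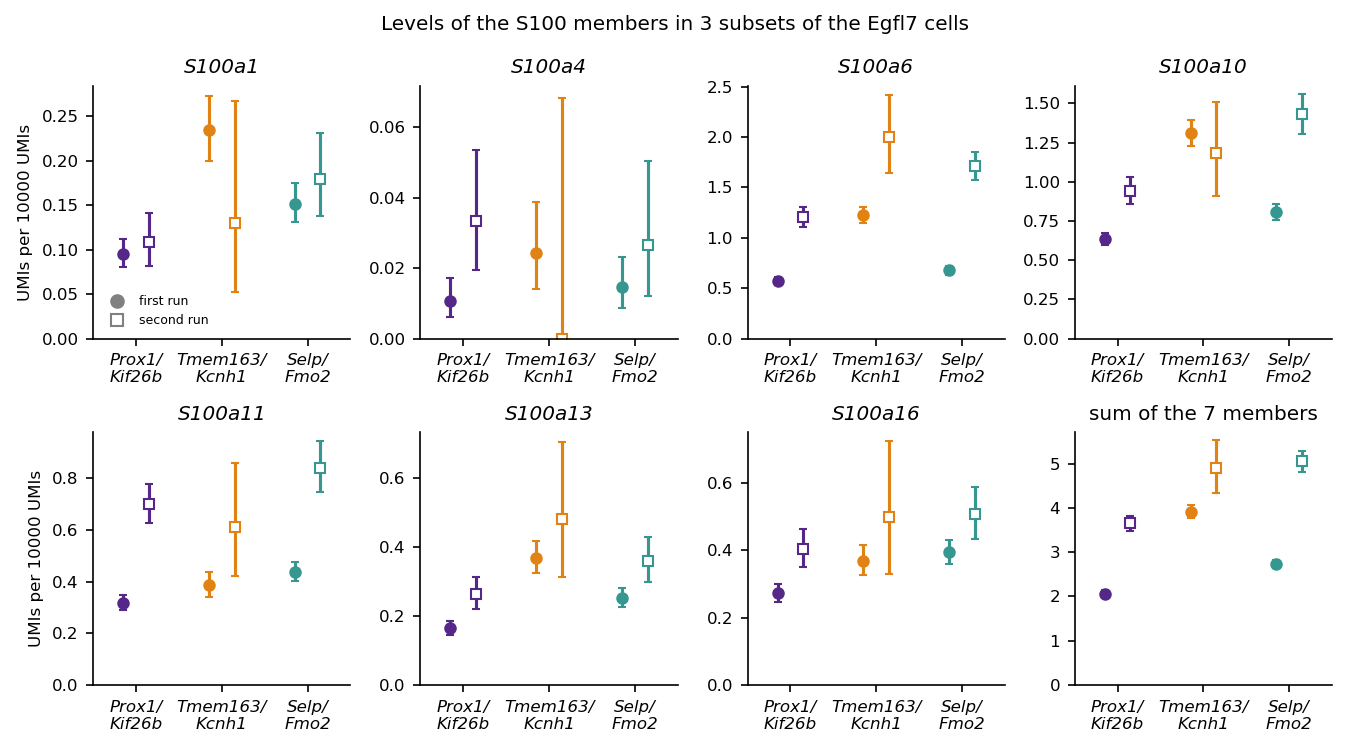
Level of each member and of their sum in UMIs per 10000 UMIs in the 3 subsets of Egfl7 cells, in the first run (circles) and the second (squares), with 95% Poisson intervals. The sums of Prox1/Kif26b, Tmem163/Kcnh1 and Selp/Fmo2 cells were 2.07, 3.92 and 2.74 in the first run, and those of the second were 3.65, 4.90 and 5.05.

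The order of the subsets was not the same in both runs. The Tmem163/Kcnh1 to Prox1/Kif26b ratio of the sum was 1.90 in the first run and 1.34 in the second, where only 64 cells had Tmem163/Kcnh1 and the Selp/Fmo2 cells were highest, within counting error of the Tmem163/Kcnh1 cells. Without the 1 Tmem163/Kcnh1 cell of that run with the most members' UMIs, 61, the second-run ratio was 1.06 (0.909 to 1.22), and that to Selp/Fmo2 cells 0.763 (0.657 to 0.883). With cells of 10 or more ribosomal UMIs left out of both runs, the Tmem163/Kcnh1 to Prox1/Kif26b ratio was 1.23 and that of Tmem163/Kcnh1 to Selp/Fmo2 cells 1.03 (0.969 to 1.10). Within the cells left out the former was 1.84. By member, the Tmem163/Kcnh1 to Prox1/Kif26b ratio with them left out was 1.67 for S100a1, 1.63 for S100a13 and 1.51 for S100a10, but 1.11 (0.970 to 1.26) for S100a6 and 1.03 (0.853 to 1.23) for S100a16, which no longer differed from 1 beyond counting error. S100a11 then had 0.783 (0.651 to 0.938), opposite in direction to the sum. By run S100a11 had 1.21 (1.04 to 1.41) and 0.873 (0.592 to 1.25). By run S100a1 had 2.47 (1.96 to 3.11) and 1.20 (0.459 to 2.63, from 7 UMIs in Tmem163/Kcnh1 cells), and S100a13 had 2.23 (1.87 to 2.67) and 1.82 (1.15 to 2.79). S100a10 had 2.07 and 1.26 (0.951 to 1.63), S100a6 2.15 and 1.66, and S100a16 1.35 and 1.24 (0.796 to 1.85). Without the cell of 61 members' UMIs the second-run ratio of S100a13 was 1.36 (0.795 to 2.21), that of S100a6 1.13 (0.874 to 1.45) and that of S100a16 0.937 (0.560 to 1.48). S100a4 had 2.29 (1.09 to 4.84) in the first run and 0 UMIs in the Tmem163/Kcnh1 cells of the second.

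Between the runs, each member was compared within a group. In Egfl7 cells the sum was 1.44 times higher in the second run (1.39 to 1.49) and the ribosomal genes 2.11 times. S100a4 had a ratio of 1.999, which was 1.37 (0.827 to 2.20) without 1 cell of 11 S100a4 UMIs. S100a11 had 1.81, S100a6 1.72, S100a10 1.25, S100a16 1.25 and S100a13 1.20. S100a1 had 0.848 (0.702 to 1.02), which did not differ from 1 beyond counting error. With S100a4 just under the threshold, 0 of 7 members were at or above 2, against 2.55% of 2393 genes, with medians of 1.25 over members and 0.958 over all. With cells of 10 or more ribosomal UMIs left out the ratio of the sum was 1.37, that of S100a6 1.73, that of S100a11 1.55 and that of S100a10 1.32. S100a4 then had 1.86 (0.876 to 3.68), S100a13 1.12 (0.933 to 1.34), S100a1 1.07 (0.823 to 1.37) and S100a16 0.969 (0.830 to 1.13), so that these did not differ from 1 beyond counting error, and S100a16 was no longer above 1. Within the cells left out the ratio of the sum was 0.519.

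In Ptprc cells the sum was 3.37 times higher in the second run (2.81 to 4.05). Their ribosomal genes were at 2.65 in the first run and 5.39 in the second. S100a4 had a ratio of 11.7, S100a11 5.24, S100a6 4.06 and S100a10 2.05. These were all 4 members with at least 50 UMIs over both runs, and 4 of 4 were at or above 2. Of 1274 genes 4.79% were, with medians of 4.65 over these members and 1.02 over all. S100a4 reached that minimum through the second run, with 47 of its 56 UMIs there. S100a1, S100a13 and S100a16 fell short of it, with ratios of 1.19, 1.18 and 1.12, none different from 1 beyond counting error. The rise was thus seen in 4 of the 7 members. Without the cell of 114 members' UMIs the ratio of the sum was 2.13 (1.73 to 2.61), that of S100a4 7.33, that of S100a6 2.58 and that of S100a11 2.51. S100a10 then had 1.47 (0.949 to 2.24), and S100a4 was under 50 UMIs, so 2 of 3 members were at or above 2, against 4.43% of 1264 genes. With the 11 cells of 10 or more ribosomal UMIs left out instead, the sum had 2.004 (1.57 to 2.55), S100a4 5.26, S100a6 2.78, S100a11 1.86 (1.002 to 3.39) and S100a10 1.41 (0.855 to 2.29). In fibroblasts the sum was 1.18 times higher (1.04 to 1.33), but with the 9 cells of 10 or more ribosomal UMIs left out it was 1.05 (0.923 to 1.20) and did not differ beyond counting error. The ribosomal genes of fibroblasts were at 1.68 in the first run and 2.96 in the second. With those 9 cells left out their ratio was 1.34 (1.21 to 1.48). Libraries, mice and cell states within a group cannot be told apart between the runs.

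To compare shares of cells at equal depth, each cell was thinned at random to 2000 UMIs, which left out 563 Egfl7 cells, 92 fibroblasts and 54 Ptprc cells with fewer. A UMI of at least 1 member was then found in 33.0% of Egfl7 cells (31.9 to 34.0), 20.3% of fibroblasts (18.9 to 21.8) and 22.4% of Ptprc cells (18.4 to 26.7). These are exact binomial intervals, and those of fibroblasts and Ptprc cells overlapped. The plot of shares at fixed depth gives each member.

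**Figure D5:**
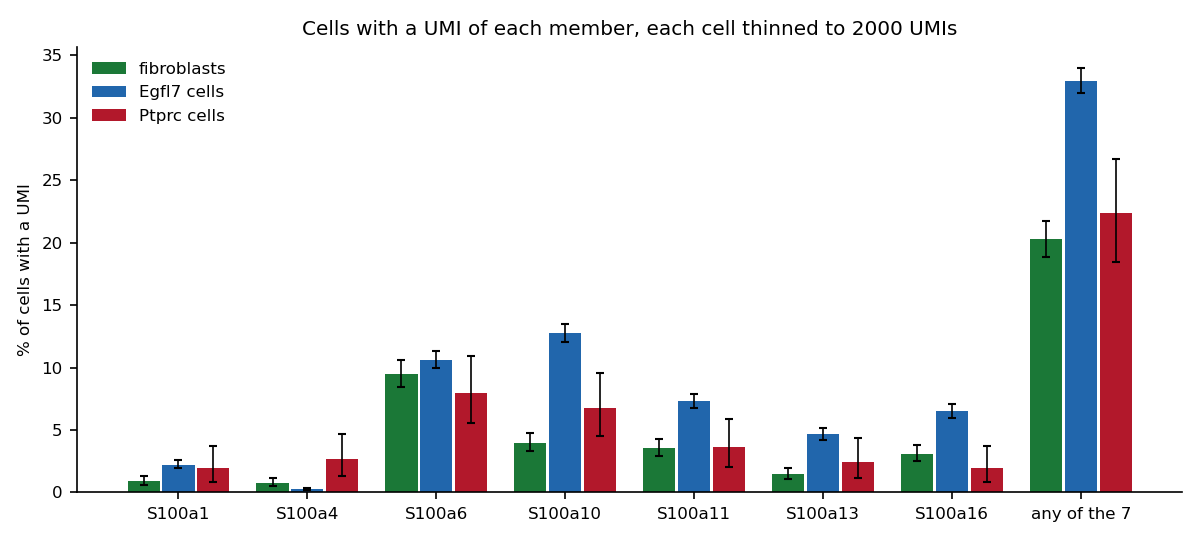
Percent of cells with a UMI of each member after thinning to 2000 UMIs a cell, with 95% exact binomial intervals, in fibroblasts, Egfl7 cells and Ptprc cells. S100a6 was found in 10.6% of Egfl7 cells and 9.49% of fibroblasts.

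S100a10 was found in 12.8% of Egfl7 cells, 3.99% of fibroblasts and 6.73% of Ptprc cells. S100a6 was found in 10.6%, 9.49% and 7.93% in the same order, far closer together than its levels. S100a4 was found in 0.25% of Egfl7 cells (0.155 to 0.382), 0.785% of fibroblasts (0.504 to 1.17) and 2.64% of Ptprc cells (1.33 to 4.68). Free RNA in droplets can give such UMIs, and no group here is known to lack any member, so no background share was available. In the second run the S100a4 shares of Egfl7 cells, 0.307%, and fibroblasts, 0.372%, did not differ beyond counting error.

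The remaining members had their highest shares in Egfl7 cells, though for S100a1 and S100a13 the intervals of Ptprc cells overlapped those of Egfl7 cells. S100a11 was found in 7.31% of Egfl7 cells, 3.53% of fibroblasts and 3.61% of Ptprc cells. S100a16 was found in 6.51%, 3.11% and 1.92%, S100a13 in 4.65%, 1.47% and 2.40%, and S100a1 in 2.23%, 0.916% and 1.92%. Most cells showed no more than 1 member at this depth, with 2 members in 5.77% of Egfl7 cells, 2.62% of fibroblasts and 2.40% of Ptprc cells.

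Among Egfl7 cells many pairs of members were found in the same cells more often than independent draws would give. The interval of the ratio lay above 1 for 15 of 21 pairs in the first run and 9 of 21 in the second. In the 2788 fibroblasts of the first run, with few cells expected for most pairs, this held for 2 of 21 pairs, S100a6 with S100a10 and S100a10 with S100a13. Pairs with a ratio under 1 numbered 1 and 3 by run in Egfl7 cells and 4 in fibroblasts, and the difference between the groups was not tested. Pairs of genes outside the family were not counted, so whether these numbers are particular to the members was not tested. In the 7099 Egfl7 cells of the first run at 2000 UMIs, S100a1 and S100a13 met in 26 cells against 7.23, a ratio of 3.59 (2.35 to 5.27). In the second run their ratio was 3.42 (1.11 to 7.99), from 5 cells. S100a6 and S100a10 met in 183 cells of the first run against 78.6, a ratio of 2.33 (2.004 to 2.69). The ratio of S100a6 with S100a13 was 2.56 (2.02 to 3.20) and that of S100a1 with S100a6 2.64 (1.88 to 3.61), so the S100a1 and S100a13 pair did not differ from these beyond counting error. Among pairs without S100a4, S100a11 and S100a16 had the lowest ratio, 1.47 (1.06 to 1.999). With the ribosomal genes the 7 members had ratios in the first run from 1.20 for S100a10 to 2.02 for S100a4, each with an interval above 1.

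Genes were ranked by how like their pattern was to that of each member, by Pearson correlation of log2 levels over 14 points, the groups in each run, among 1955 genes with at least 500 UMIs. The points share their libraries and the same split of cells, and no p is given. S100a10 was most like Tagln2 (0.973), Ptma (0.969) and Vim (0.944). S100a6 was most like Snrpb (0.933), Psma7 (0.928) and Srp9 (0.926). S100a11 was most like H3f3a (0.948), Serf2 (0.926) and Ssb (0.924).

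The S100a1 pattern was nearest to Dync1i2 (0.955), Dstn (0.935) and Hspa5 (0.896). That of S100a13 was nearest to Tmbim1 (0.977), Fkbp1a (0.95) and Ywhab (0.938). That of S100a16 was nearest to Sox13 (0.975), Hspa12b (0.961) and Gm20631 (0.959). Among the members themselves the highest values were 0.930 for S100a10 and S100a13 and 0.897 for S100a13 and S100a16. The lowest were 0.451 for S100a1 and S100a11 and 0.454 for S100a11 and S100a16. S100a4 had too few UMIs to be ranked.

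Of 10 genes whose proteins are known to bind an S100 protein, 5 are listed, and the annexin genes are not among them. Cacybp, the partner of S100a6, had a fibroblast to Egfl7 ratio of 0.507. Tpm3 had 0.501, Sept2 0.80 and Ttn, whose protein binds S100a1, 0.0607. Ttn is also a marker of heart muscle cells. Whether its 5761 UMIs in Egfl7 cells, against 136 in fibroblasts, came from such cells was not tested. Il1a, whose protein S100a13 helps export, had 0.0547 from 1 UMI in fibroblasts, and a Ptprc to Egfl7 ratio of 17.4. Of the 4 partners with at least 50 UMIs in fibroblasts and Egfl7 cells together, 1 was at or under 0.5, against 15.1% of all genes, and 0 at or above 2, against 18.2%, with a median of 0.504 against 1.04. Between Ptprc and Egfl7 cells 5 reached that minimum, with 1 at or under 0.5, against 20.6%, 1 at or above 2, against 18.3%, and a median of 0.877 against 0.974.

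Other EF-hand genes went both ways between fibroblasts and Egfl7 cells. Of 20 such genes 15 are listed and 13 had at least 50 UMIs in these groups, with a median ratio of 1.13 beside 1.04 over all genes and 0.349 over the members. Of the 13, 5 were under 1 and 2 at or under 0.5 (Capn2 0.451 and Kcnip3 0.368), against 15.1% of all genes, and 3 were at or above 2, against 18.2%. Between Ptprc and Egfl7 cells 11 reached the minimum, with a median of 0.609, 4 at or under 0.5, against 20.6%, and 1 at or above 2, against 18.3%.

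The 6 S100 genes of the matrix that are not members had 401 UMIs over all cells. S100a7a held 377 of these, more than the 295 of S100a4. It had 145 UMIs in fibroblasts, a level of 0.0694, and 127 in Egfl7 cells, 0.0236, a ratio of 2.94 (2.30 to 3.76) opposite to that of 6 of the members. S100a8, used to mark neutrophils, had 0 UMIs over all cells, with an interval up to 0.000381 per 10000, and S100a9 had 1. In Ptprc cells both had 0 UMIs, with intervals up to 0.0152.

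Fibroblasts and leukocytes were also split further by marker genes, and these splits were chosen after values had been seen. Fibroblasts with Prg4/Fmod (1820 cells) and with Scn7a/Sfrp2 (617 cells) had the same summed level, a ratio of 1.0 (0.908 to 1.11), but S100a4 had 52 UMIs in the former and 3 in the latter, a ratio of 5.98 (1.94 to 29.9). In the first run it was 5.19 (1.67 to 26.0), and the second had only 3 and 0 UMIs. S100a11 went the other way in the first run, at 0.171 (0.148 to 0.196) against 0.259 (0.210 to 0.317). In the second run S100a11 was at 0.295 against 0.290. S100a10 was at 0.249 against 0.185 in the first run, with overlapping intervals. Ptprc cells without Mrc1 (167 cells) had 5.05 times the summed level of those with it (303 cells), 4.67 against 0.925, with ratios of 10.7 for S100a4, 8.88 for S100a6 and 7.46 for S100a11, and 1.95 for the ribosomal genes. S100a13 had 3.71 and S100a10 2.28. S100a16 with 2.03 (0.627 to 6.41) and S100a1 with 1.49 (0.569 to 3.70) did not differ from 1 beyond counting error. No count over all genes was made for this split. With the cell described above left out, the level without Mrc1 was 3.17 and the ratio of the sum 3.43. The ratios were then 6.62 for S100a4, 6.28 for S100a6 and 3.90 for S100a11. By run the sum had 3.31 and 5.99, the latter 3.20 without that cell. S100a4 had 2.10 (0.417 to 9.77, from 4 and 5 UMIs) and then 15.04 (5.96 to 48.7), S100a6 5.67 and 10.4, and S100a11 3.72 and 9.28. Without that cell the second-run ratios were 9.05, 6.127 and 3.599. With cells of 10 or more ribosomal UMIs left out the ratios over both runs were 2.76 for the sum, 6.36 for S100a4, 3.90 for S100a6 and 4.65 for S100a11.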

How the data were processed

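The deposited values are in natural log units, ln of UMIs per 10000 in each cell plus 1, made by the authors with Cell Ranger 7.1.0 (mm10, per the labels) and Seurat 4.3.0 (per the methods). UMIs and totals were recovered from them as whole numbers within 0.02. The members and lists were chosen with earlier results of these data known. Levels give a group's summed UMIs of a gene per 10000 UMIs of the group, with exact Poisson intervals. Ratios of levels have exact intervals from the binomial, and shares of cells have exact Clopper-Pearson intervals, after thinning to 2000 UMIs (seed 1). Named genes are the members, other listed S100 genes, markers, S100 partners, EF-hand genes and ribosomal protein genes. Also named are a gene overlapping S100a4, the 3 genes most like each member, and Romo1 and Map1lc3a for their rank in the fourth cluster. Counts and medians of ratios cover genes with at least 50 UMIs in the groups together (500 for clusters). Cab39, listed among the EF-hand genes, has no EF hand and was left out of their counts. Alternatives were a stricter marker rule, Leiden clusters, deeper cells, means over cells, listed genes as denominator, each run alone and other depths of thinning. Python 3.11.15, numpy 2.4.6, scipy 1.17.1, pandas 2.3.3, matplotlib 3.10.9, scanpy 1.11.5, igraph 0.11.9 and scikit-learn 1.9.0 were used, and the steps were tested on simulated data.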

Additional observations from a re-analysis of the deposited data

How the results depend on the processing

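No paired analysis was possible because the barcodes carry no sample. Of 58 values for sums, ratios and counts under alternatives, 36 stayed within the interval of the reported value, 22 moved and 0 reversed. Of 133 member ratios to Egfl7 cells 99 stayed, 32 moved and 2 reversed, where a reversal counts only for a ratio whose own interval excludes 1. The fibroblast sum of 1.21 was 1.12 under the stricter marker rule, 1.26 with Leiden clusters, 1.28 as a mean over cells, 7.21 per 10000 UMIs of listed genes and 1.39 in the second run. The fibroblast to Egfl7 ratio of 0.376 was 0.356 under the stricter rule, 0.470 as a mean over cells, 0.350 with listed genes as denominator, 0.401 in the first run and 0.328 in the second. The Ptprc to Egfl7 ratio of 0.640 was 0.488 with Leiden clusters, 0.577 with listed genes as denominator, 0.401 in the first run and 0.940 in the second. The ratio of the highest to the lowest Egfl7 subset, 1.62, was 2.55 where both genes of 1 pair and none of the others were required, 1.90 in the first run and 1.38 in the second. The run ratio of fibroblasts, 1.18, was 1.42 under the stricter rule.

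Alternatives chosen after seeing the data left out cells of 10 or more ribosomal UMIs, which gave 0.616 for fibroblasts to Egfl7 cells, 1.23 between subsets, and 1.37 in Egfl7 cells and 1.05 in fibroblasts between runs, or left out the Ptprc cell with the most members' UMIs, which gave 0.497. Leaving out the 1 cell with the most members' UMIs moved 23 of 80 ratios beyond their interval, and 4 crossed 1, each with an interval over all cells that includes 1. Reversed were S100a4 between fibroblasts and Egfl7 cells in the second run, 0.416, and S100a6 with ribosomal-rich cells left out, 1.05, and their intervals under these alternatives include 1. In a wider set of 323 ratios, which holds these and adds runs, subsets, Mrc1 and Ptprc cells to fibroblasts, 19 reversed by run, without ribosomal-rich cells or without 1 cell in the second run. S100a16 between runs in Egfl7 cells, 1.25, was 0.969 without ribosomal-rich cells. Of the 19, 3 had an interval wholly on the other side of 1, S100a6 between Ptprc cells and fibroblasts, 0.758 in the first run and 0.770 without ribosomal-rich cells, and the sum between Tmem163/Kcnh1 and Selp/Fmo2 cells, 0.763 in the second run without 1 cell. For 49 others the interval came to include 1. S100a11 between Ptprc and Egfl7 cells, 0.874, was 1.27 in the second run, and both intervals include 1. The cause was not tested. Members at or under 0.5 between fibroblasts and Egfl7 cells numbered 4 to 7. The order of the 3 groups was the same in 57 of 63 cases, and S100a6 changed it most often. Of 42 shares of cells 38 moved with the thinning depth.

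Intervals cover counting error and not differences between mice. With 1 pooled matrix mice, genotypes and libraries were not compared, and the runs of barcodes stand for neither. Counts limit S100a4 most, with 3 UMIs in fibroblasts of the second run, and all members in Ptprc cells, where 1 cell held 114 of 499 UMIs. Only genes of chromosomes 1, 2 and 3 were listed, so S100 genes and markers elsewhere were not seen. Free RNA and doublets were not removed, and reads shared by S100a11 and its pseudogene or by S100a4 and Gm42674 were not separated.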

Other observations

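Among groups outside the comparisons above, 252 cells with Mlph, a melanocyte gene, had a summed S100 level of 1.73. The 81 cells with UMIs of at least 2 mitotic genes, a group chosen after values were seen, had 1.68 times the summed level of all other cells, with S100a11 at 2.78 times (2.16 to 3.52). One of these cells held 80 of their 302 members' UMIs and 27 of the 70 of S100a11, and without it the ratios were 1.26 (1.10 to 1.44) and 1.74 (1.26 to 2.35). S100a14 had 23 UMIs in all cells, and S100a3 and S100a5 had 0.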
